A study of Mus musculus with 8 samples.

Results

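The 100 protein-coding genes described here were those whose mRNA level differed least between 8 cultures of mouse embryonic stem (ES) cells. They were taken from 4746 well expressed genes, of which they were 2.11%, out of 23337 names in the deposited table. A gene was eligible when its mean normalized count over the 8 libraries was at least 1000, when its name lay outside the alphabetical runs in which one name extends another by a digit, and when it was not a telomerase, shelterin or DNA repair gene. Names in such runs (5080 of the table) were left out because rows there appear to be displaced. The 100 eligible genes with the smallest range, that is the highest minus the lowest library on the log2(normalized count + 1) scale, were the members. Because the same 8 values chose them, their small ranges are given as a description, with no test.

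The study asked what changes when ES cells are expanded in culture, and sequenced polyadenylated RNA of 4 independent lines, called clones 6, 20, 30 and 36, at passage 6 and again at passage 16. All cultures were wild type, were labelled as strain 129S1, came from blastocysts with GFP in the Rosa26 locus and were grown in DMEM with LIF, and the treatment was the expansion itself. Each clone gave 1 library per passage, so the 4 libraries of a passage are 4 lines and the passage 6 and passage 16 libraries of a clone share that line. The libraries held 21394069 to 34295561 reads assigned to genes, and the share of the 10 most counted genes was similar throughout (4.56% to 4.86%).

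The listed markers of ES cells outside the runs were high in every library, the lowest being Fgf4 at 2567 to 4219 normalized counts. Sox2 and Zfp42 stood on rows in runs, and the Sox2 row there went from 460 to 9673. Pou5f1, the octamer factor of pluripotency, ranged from 23589 to 29184 normalized counts and Nanog, a homeobox factor of the same network, from 6636 to 9071. Neither was among the stable genes. Of the trophoblast markers outside the runs, Cdx2 lay at 10.7 to 46.4 and Elf5 at 1.18 to 17.2 normalized counts, Hand1 at 94.7 to 261, Eomes at 112 to 343 and Tfap2c at 1642 to 3445. Of the fibroblast markers, the collagens Col1a1 (1192 to 2173), Col1a2 (1830.0 to 3646) and Col3a1 (181 to 500.03) were present, Pdgfrb (125 to 231) and Postn (87.0 to 227) were lower, and Thy1 (29.7 to 63.2), Dcn (9.48 to 60.9) and Lum (0 to 7.74) were lowest. Of the primitive endoderm markers outside the runs, Dab2 (851 to 2972), Gata4 (252 to 1586), Pdgfra (347 to 1334) and Gata6 (217 to 1143) were present. Sox7 (60.0 to 514) and Foxa2 (29.0 to 155) were lower on average, and all of these varied between cultures. The mesendoderm marker Mixl1 lay at 6.77 to 28.7, and Eomes belongs to that list too. Fewer cells of a kind and less RNA per cell cannot be told apart in such bulk libraries.

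Genes whose mRNA stays level between samples are used as internal standards when transcript amounts are compared by quantitative PCR. The usual choices, such as Actb, Gapdh, Tbp and Hprt, come from the cytoskeleton, glycolysis, general transcription and purine salvage, and each of those pathways can itself respond to growth conditions. Housekeeping genes of vertebrates tend to have promoters within CpG islands, often without a TATA box, and to carry binding motifs of ubiquitous factors of the ETS, NRF1, YY1 and SP1 kind.

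The 5 stretches below are shown because they are the start regions of the 4 genes with the narrowest ranges and of Cdc42, the only member whose window holds the letters TATAAA. In Cdc42 these letters lie near the upstream end of the window, far from the start. Matches were counted at any position in the window. Each runs 5′ to 3′ on the coding strand from 250 bases before to 50 after the start, as given by RefSeq on GRCm38.p6. Capitals mark matches, on either strand, to the motifs ETS (CCGGAAG), NRF1 core (GCATGCG), YY1 (AGATGGC), the TATA box letters (TATAAA), the CCAAT letters themselves, the GC box (GGGCGG), the cyclic AMP response element or CRE (TGACGT), the E-box (CACGTG) and GFY (ACTACAA), none of which contains another.
Rqcd1 (chr1:74505810-74506109, + strand): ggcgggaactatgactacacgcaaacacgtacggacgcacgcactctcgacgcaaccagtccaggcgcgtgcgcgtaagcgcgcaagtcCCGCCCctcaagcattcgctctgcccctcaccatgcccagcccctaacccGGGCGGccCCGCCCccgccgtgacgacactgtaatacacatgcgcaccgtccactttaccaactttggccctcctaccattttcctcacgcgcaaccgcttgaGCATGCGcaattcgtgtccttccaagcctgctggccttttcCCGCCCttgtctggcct
Dpp9 (chr17:56218840-56219139, - strand): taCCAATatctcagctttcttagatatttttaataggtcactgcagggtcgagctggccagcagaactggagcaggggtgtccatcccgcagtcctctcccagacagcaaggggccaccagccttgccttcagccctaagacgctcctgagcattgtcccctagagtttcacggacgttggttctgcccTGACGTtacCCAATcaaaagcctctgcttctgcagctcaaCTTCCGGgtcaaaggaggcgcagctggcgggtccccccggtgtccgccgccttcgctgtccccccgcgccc
Uqcrh (chr4:116075021-116075320, - strand): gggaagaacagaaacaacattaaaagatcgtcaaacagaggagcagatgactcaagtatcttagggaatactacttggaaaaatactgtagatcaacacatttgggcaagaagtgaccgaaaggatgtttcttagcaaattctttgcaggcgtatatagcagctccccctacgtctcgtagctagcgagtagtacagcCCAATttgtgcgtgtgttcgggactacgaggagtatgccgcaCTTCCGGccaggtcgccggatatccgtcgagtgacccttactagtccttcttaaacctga
D4Ertd22e (chr4:141139747-141140046, - strand): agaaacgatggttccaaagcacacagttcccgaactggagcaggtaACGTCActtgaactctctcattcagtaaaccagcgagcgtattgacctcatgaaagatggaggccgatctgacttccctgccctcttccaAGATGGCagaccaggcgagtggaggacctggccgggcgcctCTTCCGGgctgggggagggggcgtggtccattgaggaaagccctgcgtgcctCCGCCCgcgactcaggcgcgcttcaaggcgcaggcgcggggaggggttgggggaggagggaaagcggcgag
Cdc42 (chr4:137357710-137358009, - strand): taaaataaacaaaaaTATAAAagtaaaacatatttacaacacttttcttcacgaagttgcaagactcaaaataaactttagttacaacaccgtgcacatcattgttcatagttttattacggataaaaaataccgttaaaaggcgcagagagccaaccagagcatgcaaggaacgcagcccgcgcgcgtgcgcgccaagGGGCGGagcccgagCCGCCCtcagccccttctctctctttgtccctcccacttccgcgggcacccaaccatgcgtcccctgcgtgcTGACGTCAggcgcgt

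The start regions of the stable genes were rich in CpG and mostly lacked TATAAA. RefSeq gave a start region for 84 members, and 78 of these (92.9%) had a ratio of observed to expected CpG of at least 0.6, against 84.7% of the 3872 eligible genes with a region and 36.5% of all 27025. TATAAA stood in 1 member (1.19%), in 6.07% of eligible genes and in 14.2% of all regions. Of the 23 common reference genes with a region, 4 (17.4%) held it. The GC box was in 77.4% of member regions, 72.1% of eligible and 35.9% of all. The ETS motif was in 21 member regions (25%), in 22.4% of eligible and in 9.14% of all, and in 1 of the 23 reference genes. The NRF1 core was found in 13.1% of members, 8.06% of eligible genes and 3.65% of all, and the CRE letters in 20.2%, 14.3% and 7.59%. YY1 letters were in 10.7%, 8.96% and 6.45%, the E-box in 14.3%, 11.6% and 7.24%, CCAAT in 38.1%, 39.6% and 38.0%, and GFY in 1.19%, 5.17% and 3.44%. These shares were counted without a test.

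The narrowest range belonged to Rqcd1, now named Cnot9, a subunit of the CCR4-NOT complex that shortens poly(A) tails. Its passage 6 normalized counts were 5026 in clone 6, 5068 in clone 20, 5223 in clone 30 and 5126 in clone 36, and the passage 16 libraries of these clones held 5077, 5004, 5152 and 5117. The highest culture was thus 1.04 times the lowest, a range of 0.0618 on the log2 scale, and both cultures of clone 30 were its highest. Next came Dpp9, a cytosolic peptidase that cuts after proline, at 2419, 2345, 2452 and 2376 normalized counts in the passage 6 libraries of clones 6, 20, 30 and 36, with 2408, 2445, 2375 and 2369 in those of passage 16. Both its highest and its lowest library were passage 6 cultures. Uqcrh, the hinge subunit of respiratory complex III, gave 3154, 3295, 3192 and 3273 normalized counts at passage 6 and 3199.7, 3306, 3251 and 3282 at passage 16. Its lowest library was passage 6 clone 6. D4Ertd22e, now named Szrd1 and little described, gave 3317, 3344, 3248 and 3270.3 in the passage 6 libraries, against 3355, 3353, 3306 and 3199 in those of passage 16. The 5th gene in the order was Hnrnpk, an abundant RNA-binding protein of splicing and transcription, with 31773, 31691, 32204 and 32851 at passage 6 and 31526, 31329, 32903 and 33038 at passage 16. Both cultures of clone 36 stood above both of clone 6 and both of clone 20, within a range of 0.0766 on the log2 scale.

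**Figure D1:**
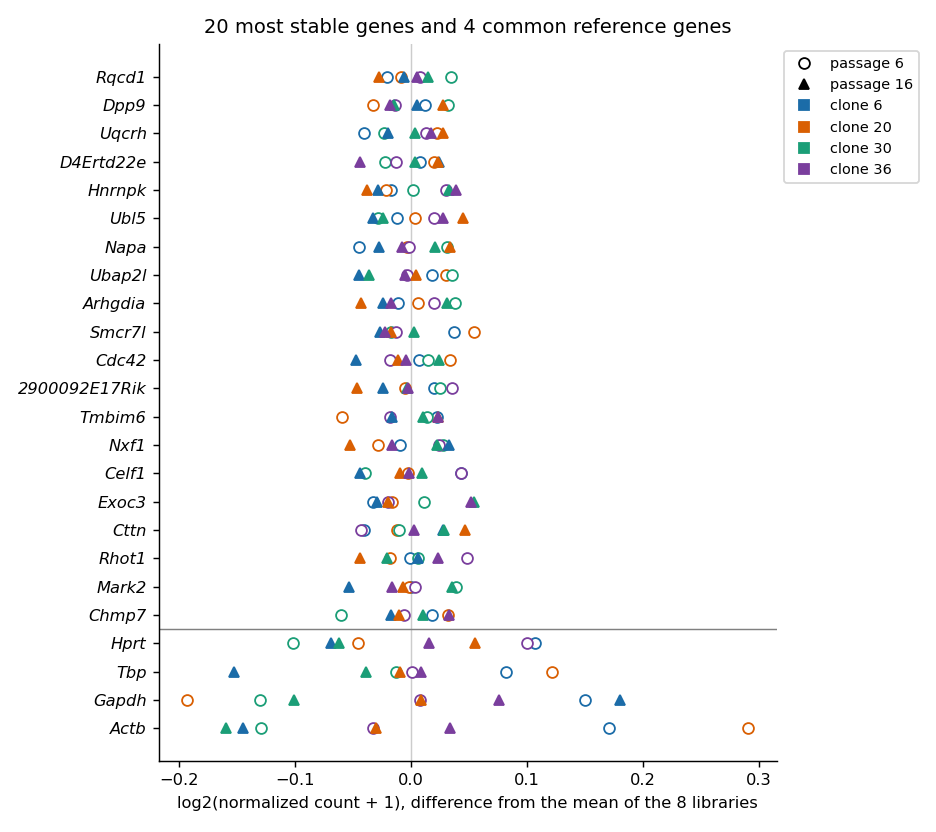
Difference of each library from the gene's own mean over 8 libraries, on the log2(normalized count + 1) scale, for the 20 genes with the narrowest range and for Hprt, Tbp, Gapdh and Actb. Open circles are passage 6, filled triangles passage 16, and colours are the 4 clones. The points of the 20 stable genes lie within a range of 0.0618 to 0.0928, while those of Hprt span 0.209 and those of Actb 0.450.

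Over the 100 genes the range ran from 0.0618 to 0.1198 on the log2 scale with a median of 0.106, so that the highest library was 1.04 to 1.09 times the lowest. The median over all eligible genes was 0.324, or 1.25-fold, and 234 eligible genes (4.93%) had a range above 1. The coefficient of variation over the 8 libraries had a median of 2.54% in the members and 7.74% in all eligible genes. At the edge of the choice, the last member was Ywhaz with a range of 0.1198 and the first gene outside was Timm8a1, an import chaperone of the mitochondrial intermembrane space, with 0.1201. Wbscr16 had the lowest mean of any member, 1002 normalized counts, and Trappc3, a vesicle tethering subunit with a range as small, missed the level threshold at 997. Of the genes left out for their role in repair, 3 had a range within that of the members, namely Kat5 (0.104), an acetyltransferase of the TIP60 complex, Gtf2h3 (0.106), a TFIIH subunit, and Msh3 (0.119), a mismatch repair protein.

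Among the eligible genes, all well expressed by the rule, the members were not confined to the most abundant transcripts. Their mean normalized counts had a median of 3107, against 2467 for eligible genes, and reached 36710 in Kpnb1. They were 1.08% of the genes with means of 1000 to 2000, 2.92% between 2000 and 5000, 2.48% between 5000 and 10000 and 2.54% above that. Levels were also divided by a gene's exon bases, merged over all its GENCODE transcripts. On that scale members had a median of 628 normalized counts per kilobase, beside 529 for eligible genes. They ran from 136 in Rab3gap1 to 32107 in Rps15. Actb stood at 27710, Gapdh at 10025, Hprt at 3033 and Tbp at 101 on the same scale. Merged exons can be longer than any single transcript, which lowers the value. Tbp was divided by 13576 bases and Hprt by 1289. The merged exons had a median of 4755 bases in members and 5009 in eligible genes. The transcript with the most exons had a median of 11 exons in either set.

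How near these genes came to pure counting error was read from the recovered reads, as the chi-square of the 8 read numbers around a shared level divided by its 7 degrees of freedom. A value of 1 is what counting alone gives. Members had a median of 2.05, and 16 of them lay under 1, whereas the median of eligible genes was 17.3 and only 17 of the 4746 (0.358%) lay under 1. The lowest was 2900092E17Rik, now Pagr1a, a subunit of histone methyltransferase complexes, at 0.386 with 1074 to 1137 normalized counts. The most abundant members had small ranges and yet varied well beyond counting, with 25.2 for Kpnb1 and 24.7 for Rpl12. Tbp had 4.64, Hprt 12.0, Gapdh 374 and Actb 1048. These values follow in part from the choice of members and were not tested.

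**Figure D2:**
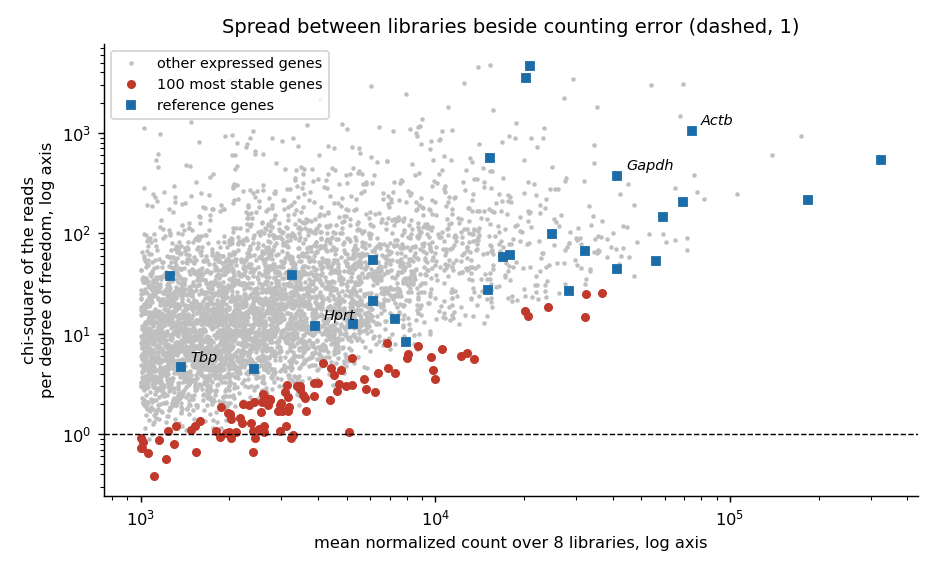
Chi-square of the reads per degree of freedom (y axis, log scale) against mean normalized count over 8 libraries (x axis, log scale) for the 4746 eligible genes. Red circles are the 100 stable genes, blue squares the other eligible reference genes, grey points all others, and the dashed line marks counting error alone. The members lie along the lower edge, with a median of 2.05 against 17.3 for all, and share it with other genes. Under 2 lay 48 members among 113 eligible genes. The members' values rise with abundance to 25.2 for Kpnb1, and no member has a higher mean than its 36710.

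By role, 16 of the members work in membrane traffic, 15 in RNA processing, export and decay, 13 in chromatin and transcription and 11 in mitochondria. The actin and microtubule cytoskeleton, signalling, and ubiquitin and proteolysis had 7 each. Translation had 4, the endoplasmic reticulum with protein insertion 3, metabolism 3 and nuclear transport 2, and 12 were given no role. The roles were assigned by hand with the list known. Members beyond the 20 narrowest and the leading ones of each gene family are named below for their roles, after their values had been seen.

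The RNA group followed an mRNA from splicing to decay. Besides Rqcd1 and Hnrnpk it held Ubl5, a ubiquitin-like partner of spliceosomal proteins, with a lowest, median and highest normalized count of 1511, 1542 and 1596, and Nxf1, the main export receptor of mRNA, with 4241, 4419.8 and 4501. Celf1, which binds GU-rich elements, ranged from 11866 to 12601 around 12213. Ubap2l, a stress granule protein, ranged from 9515 to 10054 around 9817. In each of these the libraries of both passages overlapped. Cstf2 (range 0.093), a cleavage stimulation factor of 3′ end formation, Exosc7 (0.110), an exosome subunit, Lsm2 (0.103), a ring protein of the spliceosome and of decapping, and Srrm1 (0.110), a splicing coactivator, varied slightly more. Ptbp1, Thrap3, Sfswap and Khdrbs1, all regulators of splicing, and Smg6, an endonuclease of nonsense-mediated decay, completed the group. Smg6 is also known as a homologue of a yeast telomerase component and was not on the list of telomere genes left out.

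Membrane traffic gave the largest group, with a median range of 0.105. Napa, the SNAP protein that helps dismantle SNARE complexes, was narrowest at 2886, 2972 and 3048 normalized counts for the lowest, median and highest library. Exoc3, an exocyst subunit, stood at 1756, 1774 and 1865, with both high values at passage 16 in clones 30 and 36. Chmp7, an ESCRT-III protein of the nuclear envelope, gave 2015, 2104 and 2149. The Rab1b GTPase of transport from the endoplasmic reticulum to the Golgi varied by 0.097, and its lowest library was passage 6 clone 6. The group further held COPII and Golgi proteins (Sec24b, Sar1a, Ergic3), endocytic and endosomal proteins (Gak, Epn1, Gapvd1, Rab5a, Snx4, Agfg1, Ccz1) and Rab3gap1 and Scamp2, with ranges up to 0.117.

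In the chromatin and transcription group the ranges lay between 0.082 and 0.119. 2900092E17Rik led it. Brd3, a bromodomain reader of acetylated histones, ranged from 3862 to 4159 normalized counts, both ends of which were passage 16 cultures. The others were Naa40, an acetyltransferase of histone N termini, Hmg20b of the LSD1 corepressor, the H2A deubiquitinase Bap1, the histone chaperone Nap1l4, the INO80 subunit Actr8, the RNA polymerase III subunit Polr3d, the TFIID subunit Taf3, and the DNA-binding or regulatory proteins Prdm4, Gmeb2, Pogz and 2610301G19Rik, now Ccar2. None of the 12 ES cell markers was a member, and 10 of them stood on rows that could be used. Over all eligible genes the share of members was 2.11%, so nothing is read from their absence.

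Mitochondrial members combined respiratory subunits with proteins of organelle shape and movement. Sdhd, the membrane anchor of complex II, ranged from 3419 to 3647 normalized counts around 3584, and Ndufab1, the acyl carrier protein of complex I, from 1892 to 2023 around 1941. Smcr7l, now Mief1, a receptor for the fission machinery, gave 2469, 2489 and 2612, the 2 highest libraries being clones 6 and 20 at passage 6. Rhot1, the Miro GTPase that links mitochondria to motors, gave 2374, 2452 and 2531. The fusion GTPase Opa1, the porin Vdac2, the outer membrane protein Mtch2, Ndufb5, Cox7a2l and Wbscr16, now Rcc1l, were the others, with ranges of 0.105 to 0.119.

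Among the cytoskeletal members were an inhibitor and a GTPase of the same system. Arhgdia, which holds small GTPases inactive in the cytosol, stood at 13082, 13455 and 13838 normalized counts, and Cdc42, a small GTPase of cell polarity, at 9638, 9969.8 and 10196. Capza1 (range 0.10), an actin capping subunit, Arpc1a (0.104), of the actin-nucleating Arp complex, and Kif3b (0.107), a kinesin motor, followed, with Specc1l at 0.093. Actb, the major actin itself, was not among them.

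Signalling members were Mark2, a polarity kinase that acts on microtubules, at 2519, 2613 and 2686 normalized counts, the stress kinase Map2k4, the membrane sheddase Adam17, the protein kinase A regulatory subunit Prkar1a, the phosphatase Acp1, Adrbk1, now Grk2, and Ywhaz. Proteolysis was represented, after Dpp9, by the proteasome proteins Psme3, a nuclear activator (6984 to 7468 normalized counts), and Psma3, a core subunit (6617 to 7104), by Tpp2, and by the ubiquitin ligase proteins Maea, Kctd5 and Rbx1. Rbx1, the RING subunit of cullin ligases, was lowest in passage 16 clone 6. The translation group comprised the ribosomal proteins Rpl12 (31459 to 33900.2) and Rps15 (19416 to 20986), the Elongator subunit Elp2 and Paip2, which restrains the poly(A)-binding protein. Kpnb1, the importin beta that carries cargo into the nucleus, ranged from 35443 to 38206, and the nucleoporin Nup133 from 5011 to 5441.

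The group of the endoplasmic reticulum and protein insertion held Tmbim6, a calcium and stress regulator, at 5981, 6285 and 6335 normalized counts. Of its libraries, passage 6 clone 20 alone lay below 6154. The others were Ganab, which acts in glycan trimming, and Get4, which acts in the insertion of tail-anchored proteins. Metabolism gave Alas1, the first enzyme of haem synthesis, Minpp1 and Agpat6, now Gpat4. Those without an assigned role were D4Ertd22e, Dlgap4, Heatr6, Api5, Setd3, Cdkn2aipnl, Ola1, Pcnp, Dcaf7, Rbm18, Sbno1 and Ttc9c, with ranges of 0.0685 to 0.119.

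Gene families set by patterns in the symbol, rather than by the values, placed these counts beside the rest of each pathway. Over all eligible genes the share of members was 2.11%. Of 69 eligible subunits of the respiratory chain and ATP synthase, 5 were members (7.25%) and 59 had a range below the median of all eligible genes. Factors of mRNA 3′ processing and decay gave 4 of 45 (8.89%), proteasome subunits 2 of 34, vesicle coats, tethers and Rab proteins 7 of 132, actin, tubulin and motor proteins 4 of 75 (Actr8, a nuclear protein, among them by its symbol alone), splicing factors 4 of 85, and nuclear transport factors 2 of 49. Chromatin remodellers and histone modifiers gave 2 of 88 (2.27%). RNA polymerase II, Mediator and general transcription factors gave 1 of 45 (2.22%). Both shares were near that over all eligible genes. Setd3, 1 of the 2 chromatin members, and Rbm18 among the splicing factors were placed by symbol and given no role here. The chromatin pattern did not take in Bap1, Naa40 or Actr8, which the roles list under chromatin and transcription. Cytosolic ribosomal proteins had the narrowest median range of the 19 families, 0.186. Of these, 50 of 55 lay below the overall median, and 2 were members (3.64%). The patterns found no member among 82 ubiquitin enzymes and ligase subunits (they do not take in Maea, Kctd5 and Rbx1), nor among 52 translation factors, 39 serine/threonine phosphatase subunits, 38 chaperones, 22 RNA helicases, 21 zinc finger proteins, 18 mitochondrial ribosomal proteins, 13 vacuolar ATPase subunits or 6 tRNA synthetases. Zinc finger proteins had the widest median range, 0.477. Of the 100 members, 33 fell in any family.

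The 4 classic reference genes varied 1.97 to 4.25 times as much, in log2 range, as the median stable gene. That ratio is set in part by the choice, which took the smallest ranges in these same libraries. Beside the median range of all eligible genes, 0.324, Hprt and Tbp were narrower and Gapdh and Actb wider. Actb, the cytoplasmic actin, gave 83128, 90337, 67495 and 72151 normalized counts in the passage 6 libraries of clones 6, 20, 30 and 36, with 66778, 72317, 66109 and 75557 in those of passage 16. Clones 6 and 20 at passage 6 stood above every other culture. Its range of 0.450 put it at place 3385 of 4746, past 71.3% of the eligible genes. Gapdh, the glycolytic dehydrogenase, gave 45819, 36112, 37718 and 41507 at passage 6 and 46764, 41523, 38494 and 43521 at passage 16, and with a range of 0.373 it lay at 59.5% of the order. Both cultures of clone 6 were high for Gapdh, and both of clone 30 and the passage 6 culture of clone 20 were low. Tbp, the TATA-binding protein, gave 1448, 1489, 1356 and 1369 at passage 6 and 1231, 1359, 1332 and 1376 at passage 16, a range of 0.275 at 37.8% of the order. Hprt, the purine salvage enzyme, was the steadiest of these at 4205, 3782, 3637 and 4185 and then 3722, 4056, 3738 and 3946, a range of 0.209 at 19.5% of the order. Averaged over these 4 genes, the deviation from the mean differed between libraries by 0.221 on the log2 scale, or 1.17-fold. Averaged over the 28 eligible reference genes it differed by 0.186, and over the members by 0.0176, which the choice of members fixes.

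Ywhaz, an adaptor that binds phosphorylated proteins, was the only one of the 30 reference genes in the table that was also a member. It gave 21421, 20454, 20444 and 19942 normalized counts at passage 6 and 19714, 21112, 20713 and 20871 at passage 16. Clone 6 supplied both its highest and its lowest library. Just outside the members were the ribosomal protein Rps18 (range 0.122, place 108), the chaperone Hsp90ab1 (0.132, place 153), the prolyl isomerase Ppia (0.137, place 186) and the ATP synthase subunit Atp5b (0.145, place 235), all within the steadiest 10% of eligible genes. Nono (0.184), Eef1a1 (0.184), Rpl13a (0.188), Sdha (0.199), Tubb5 (0.204), Ubb (0.209), Rplp0 (0.227), Cyc1 (0.235), Polr2a (0.241), Canx (0.255), Eif4a2 (0.278), Psmc4 (0.352), Ipo8 (0.477) and Tfrc (0.730) came later. The median eligible reference gene had a range of 0.218 and lay at 22% of the order, and 8 of the 28 were wider than the median eligible gene.

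The widest were 3 genes whose levels separated the cultures. The glycolytic genes Pgk1 (10748 to 36474 normalized counts, range 1.76) and Ldha (11527 to 33148, range 1.52) were high in passage 6 clone 6 and passage 16 clone 20 and low in clone 30 at both passages and in passage 6 clone 20. B2m, the light chain of class I molecules, spanned 466 to 1219, a range of 1.39, and like Gusb (677 to 979) had a mean below 1000.

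**Figure D3:**
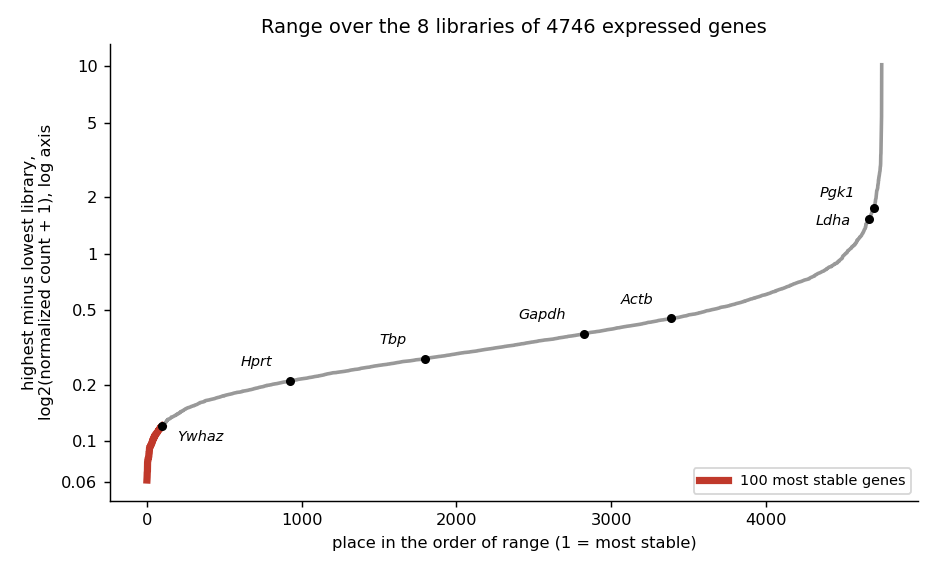
Range over the 8 libraries (y axis, log scale) of the 4746 eligible genes, ordered from the most to the least stable (x axis). The red segment is the 100 members, and black points mark common reference genes. Ywhaz ends the red segment at 0.1198, Hprt, Tbp, Gapdh and Actb lie between 0.209 and 0.450, and Ldha and Pgk1 lie above 1.

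The reference genes are common ones listed without use of their ranges here, so their passage difference was tested. Earlier results of these data were known when the list was made. Ywhaz is also a member, so its small difference follows in part from the choice. In limma on log2(normalized count + 1) over all 14791 names with a mean of at least 10, none of the 30 passed an adjusted p of 0.05, and 0 had an unadjusted p under 0.05. Over all names tested, 0.00676% were called and 3.50% had an unadjusted p under 0.05, and edgeR and DESeq2 on the recovered reads also called 0 of the 30. The change from passage 6 to passage 16 in Actb was -0.15 on the log2 scale (SE 0.0967, 95% interval -0.37 to 0.073, limma adjusted p = 0.947), lower in 3 of 4 clones. Gapdh changed by 0.082 (SE 0.0887, -0.12 to 0.29, limma adjusted p = 0.947), higher in 4 of 4 clones. Tbp changed by -0.096 (SE 0.0590, -0.23 to 0.040, limma adjusted p = 0.947), lower in 3 of 4, and Hprt by -0.030 (SE 0.0624, -0.17 to 0.11, limma adjusted p = 0.960), lower in 2 of 4. B2m had the largest estimate in size (-0.29), with an interval of -0.97 to 0.38. These intervals do not show that the genes were level. The groups of a passage are 4 lines each, and p-values measure the spread between those lines, with variances drawn towards a trend over all names. This fit did not pair the 2 libraries of a clone. With the clone as a block, limma gave an adjusted p of 0.726 for Actb and for Gapdh. It gave 0.740 for Tbp and 0.903 for Hprt.

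In the members the passage 16 minus passage 6 difference ran from -0.055 to 0.055 on the log2 scale with a median of -0.0020, and 46 of the 100 were higher at passage 16, as were 2174 of the 4746 eligible genes. In eligible genes it ran from -0.81 to 0.80. The values of the 4 passage 6 and the 4 passage 16 libraries did not overlap in 3 members, against 1.71% of eligible genes, a count from which nothing is read because the range chose the members. Cttn, the actin-binding protein cortactin, had 5656, 5769.7, 5776 and 5644 normalized counts at passage 6 and 5929, 6006, 5931 and 5826 at passage 16, a log2 difference of 0.052. The 2 others were named after their values were seen. Naa40 was higher in each clone at passage 16, at 3049.7, 3060.0, 3079 and 3110.1 against 2978, 2911, 2942 and 3011. Maea, of the CTLH ubiquitin ligase, was lower in each, at 3801, 3731, 3899 and 3786 against 3914, 3963, 3994 and 3909.9. The largest change within a clone between passages had a median of 0.0716 on the log2 scale in members and 0.218 in eligible genes.

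Genes chosen on part of the cultures stayed steadier than most in the cultures not used for the choice, though far less so than where they were chosen. The 100 genes with the smallest range over the 4 passage 6 libraries had a median range of 0.0419 there and 0.168 over the 4 passage 16 libraries, where the median of all eligible genes was 0.232. In those held-out libraries 81 of the 100 lay below that median and 17 in the lowest 10% of eligible genes. Chosen on passage 16, the median range was 0.0456 where chosen and 0.165 over passage 6, against 0.239, with 79 below the median and 13 in the lowest 10%. The choices on passage 6 and on passage 16 had 4 genes in common, and held 19 and 20 of the members. Both passages come from the same clones, so the held-out libraries are new cultures of known lines. In a further choice, added after the data were seen, each clone was left out in turn. The larger deviation of its 2 libraries from the mean of the 3 other clones had a median of 0.0958 on the log2 scale for the chosen genes against 0.145 for eligible genes in clone 6, 0.109 against 0.153 in clone 20, 0.0965 against 0.145 in clone 30 and 0.0635 against 0.10 in clone 36.

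**Figure D4:**
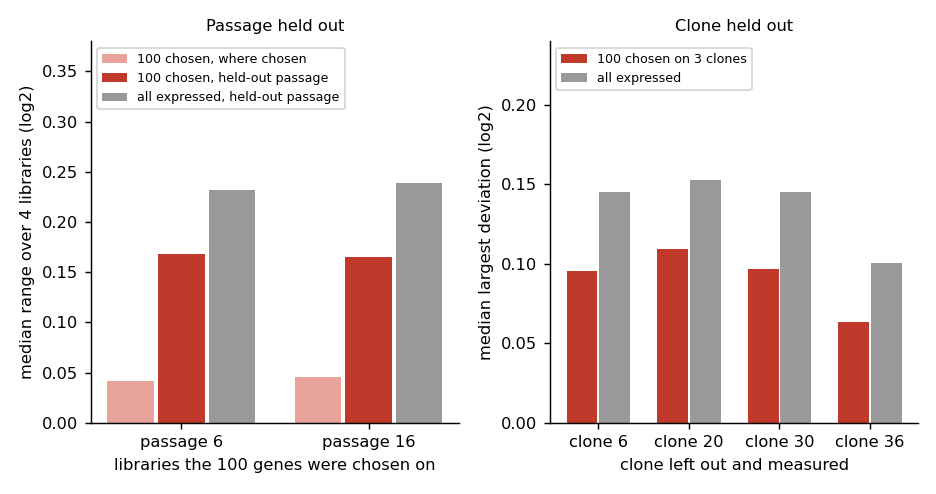
Left, median range over 4 libraries (log2) of 100 genes chosen on passage 6 or on passage 16, in the libraries that chose them (pale), in the held-out passage (red) and for all eligible genes in that passage (grey). Right, median of the largest deviation (log2) in a left-out clone for 100 genes chosen on the other 3 clones (red) and for all eligible genes (grey). Held-out medians of the chosen genes are 0.168 and 0.165, between the values where chosen and those of all genes.

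Single libraries decided much of the list. When the 100 were chosen without passage 6 clone 20, 48 of the members were chosen again, without passage 16 clone 6 it was 55, and without passage 16 clone 30 it was 62, while leaving out each of the others kept 68 to 78. With clone 6, 20, 30 or 36 left out whole, 42, 36, 39 and 63 members were kept. In all 8 choices that left out a library, 37 members recurred, and 34 of these were also chosen under TMM scaling, scaling to library totals, a pseudocount of 10 and the standard deviation as the measure. These 34 included Rqcd1, Dpp9, Uqcrh, D4Ertd22e and Hnrnpk and 14 others of the 20 narrowest, all but Cttn. Ywhaz was not among them. These choices reuse most of the values that chose the members, so the return of the narrowest genes is in part fixed in advance. Members were lowest in passage 16 clone 20 in 23 genes (16.7% of eligible genes were lowest there), in passage 16 clone 6 in 22 (18.2%), in passage 6 clone 20 in 15 (19.3%) and in passage 6 clone 36 in 2 (4.99%).

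Chromosome 6 held no stable gene. Of its 219 eligible genes 0 were members, and their median range was 0.477 against 0.317 on all other chromosomes. In the passage 16 library of clone 6, chromosome 6 genes had a median deviation of 0.26 on the log2 scale from their mean over the libraries, while the 7 other libraries lay between -0.056 and 0.0043, and 172 of the 219 genes were highest in that library. Without it the median range on chromosome 6 was 0.293 against 0.295 elsewhere, and 2 of 218 genes (0.917%) would have been chosen. Gapdh and Ipo8, both on chromosome 6, had their highest value in that library. The X chromosome, with a median range of 0.404, had 1 member, Cstf2, among 144 eligible genes. The share was highest on chromosome 19, with 8 of 160 (5%), followed by chromosome 2 with 13 of 377.

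**Figure D5:**
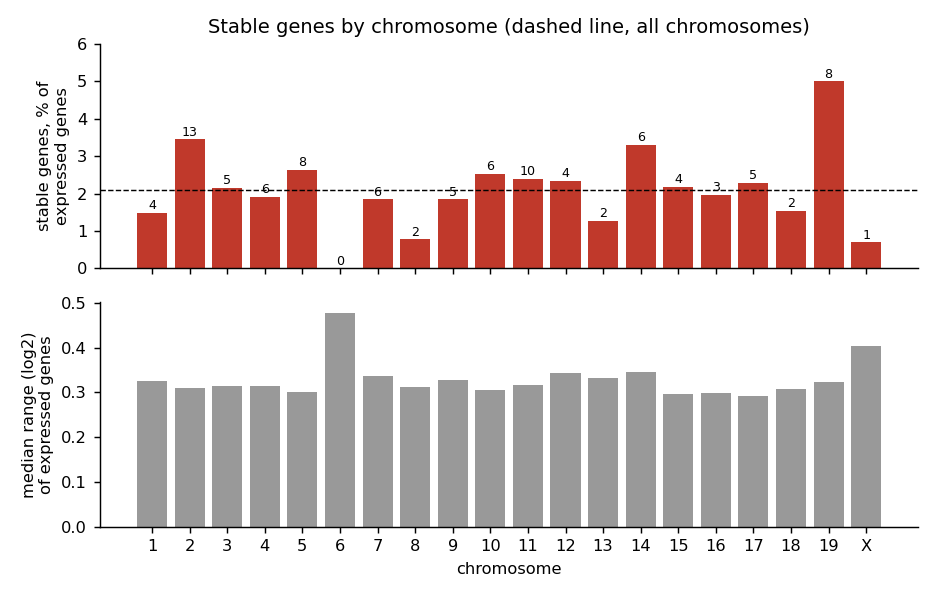
Upper panel, stable genes as a percent of the eligible genes of each chromosome, with the number of stable genes above each bar and the share over all chromosomes (2.11%) dashed. Lower panel, median range (log2) of the eligible genes of each chromosome. The Y chromosome, with 1 eligible gene and no member, is not drawn. Chromosome 6 has no stable gene and the widest median range drawn, 0.477.

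Reads shared with copies elsewhere were not measured. Pseudogenes named after the gene were annotated for 8 members (8%), namely 2 each for Uqcrh and Rpl12 and 1 each for Api5, Ndufab1, Rab5a, Rps15, Minpp1 and Rbx1, against 3.71% of eligible genes. Exons on the same strand as another gene's were found for 9 members (9%) and 8.66% of eligible genes, and overlap with a gene on the opposite strand for 31 (31.0%) and 31.7%.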

How the data were processed

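Polyadenylated RNA of 8 ES cell cultures (clones 6, 20, 30 and 36 at passages 6 and 16) had been made into TruSeq stranded libraries and sequenced as 50-nt single-end reads. Per the labels and the study's methods, the authors aligned them to GRCm38/mm10 with TopHat 2.0.10, Bowtie 1.0.0 and SAMtools 0.1.19, counted genes with HTSeq 0.5.3p9 on UCSC annotation and used DESeq2. The strand setting of the counting was not given in the sources used here. Labels give the strain as 129S1, whereas the methods name C57BL6 for cultured ES clones without saying which were sequenced.

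The deposited values are a signal, namely gene read counts that the authors divided by a size factor per library. Low values are whole multiples of a step, so reads were recovered by division, and 100% of values came out whole within 0.001 read. Totals of 21394069 to 34295561 reads set the precision. The median member had at least 2287 reads in every library. Names in 644 alphabetical runs (5080 names, 21.8%) were left out of the choice, as were 132 telomere and repair genes with a sufficient mean.

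Ranges were taken on log2(value + 1). Passages were compared with limma 3.58.1 (R 4.3.3, trended variance, two-sided, Benjamini-Hochberg over 14791 names, threshold 0.05). The alternatives were edgeR 4.0.16 and DESeq2 1.42.0 on recovered reads. All were tried on simulated libraries that shared no clone between passages, so nothing about the real, paired libraries is concluded from that trial. Same-numbered libraries are the same clone by the labels. Their deviations from passage means correlated at 0.0956 (clone 6), 0.271 (20), 0.701 (30) and 0.433 (36) over 12283 names. Genes were matched to RefSeq (GRCm38.p6, 100 of 100 members, 8 by an older symbol) and GENCODE M21. The members, gene lists, families, motifs and tests were chosen with earlier results of these data known. The genes named are the 20 narrowest members, the last member and the first gene outside, the 3 narrowest of each family with at least 2 members, all reference genes and the repair genes left out, except that 3 reference genes are counted but not reported here. Of 31 reference genes listed, 30 were analysed, and Rn18s was not analysed here.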

Additional observations from a re-analysis of the deposited data

Results flagged for a closer look

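In 26 reference genes that were not members, the 4 libraries of a passage were examined for a culture standing apart (gap to the nearest other over the whole range of the group, on the log2 scale, above Dixon's 95% critical value for 4 samples). The stable genes were not examined in this way, since their spread chose them. Of the 52 groups of libraries examined, 3 stood out, where chance gives about 1 in 20, or 2.6. Gusb was low in passage 6 clone 20 at 677 against 852 to 889. Hsp90ab1 was low in passage 16 clone 20 at 179483 against 187940.0 to 189474. Sdha was high in passage 16 clone 36 at 7960.3 against 7176 to 7202.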

How the results depend on the processing

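With the libraries of passage 6 alone, 19 of the members were chosen (median range 0.0419), and with passage 16 alone 20 (0.0456). Choices without 1 library or 1 clone held 36 to 78 members, with median ranges of 0.0725 to 0.10, which are narrower because fewer libraries enter the range. Other scaling, pseudocounts, level thresholds, measures of spread or letting in the runs kept 68 (library totals) to 99 members (pseudocount 10). In the comparison of passages limma called 1 of 14791 names, Sox18, which lies in a run. With the clone as replicate block it called 0, outside the runs 0, edgeR on recovered reads called 1, DESeq2 called 46 and DESeq2 with the replicate block 98, the cause of which was not tested, and leaving out 1 library gave 1 to 13, the most without passage 6 clone 30 (13) and passage 16 clone 30 (12). The 30 reference genes had 0 calls in all 18 other fits (lowest adjusted p = 0.698 over limma, edgeR and DESeq2), the replicate block included, which gives no sign that they are level. Actb, Gapdh and Tbp kept their sign, and Hprt ran from -0.069 to 0.00071 with 1 library left out, turning positive without passage 6 replicate 6. Of 540 reference gene values under other settings 50 changed sign, in 20 genes. Member promoter counts for each motif stayed within 1.5 times when bases after the start were left out, with YY1 letters then in 8.33% of members and 4.62% of eligible genes. Precision is limited by 4 clones. Members with means near 1000 counts have ranges close to counting error, whereas all eligible genes with means of 1000 to 2000 had a median range of 0.355.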
